A study of Homo sapiens with 33 samples.

Results

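The NRF2 antioxidant response was followed through 9 genes, chosen by name out of the 29744 genes in the expression tables. They were the regulators NFE2L2 and KEAP1 and the targets NQO1, GCLC, GCLM, SLC7A11, TXNRD1, SRXN1 and HMOX1, and all 9 had an adjusted p in every comparison. RNA was sequenced from 11 human lines of high-grade serous ovarian cancer, in 3 libraries each and 33 in all. The lines formed 4 families, each holding 1 platinum-sensitive line and the resistant lines of the same origin. OVCAR3 and OVCAR4 are established lines, and OVCAR3 ResA, OVCAR3 ResB, OVCAR4 ResA and OVCAR4 ResB were derived from them by repeated short cisplatin exposures of rising dose and were afterwards grown without drug. PEA1 (sensitive) and PEA2 (resistant) came from 1 patient, and PEO1 (sensitive), PEO4 and PEO6 (both resistant) from another. No treatment is named in the labels of any library, and the roles of sensitive and resistant line were taken from the study's text. Each resistant line is a single derivative or a single patient-derived line, so a change belongs to that line, and comparisons within a family share the sensitive line's libraries.

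NFE2L2 encodes NRF2, a transcription factor that binds antioxidant response elements together with small MAF proteins. KEAP1 is the adaptor that presents NRF2 to a ubiquitin ligase, so that in unstressed cells NRF2 protein is short-lived, and oxidants or electrophiles modify KEAP1 and let NRF2 accumulate. The regulation acts largely on the protein, which was not measured here. Targets of NRF2 make glutathione, which can bind platinum drugs, keep thioredoxin and peroxiredoxins reduced, and detoxify quinones and heme.

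The question was whether the resistant lines carried more or less of these transcripts than the sensitive line of their family. No single direction held. Of 63 combinations of a gene with a resistant-sensitive pair, 30 were called (DESeq2 Wald test, Benjamini-Hochberg adjusted p under 0.05 over all genes), 10 higher and 20 lower in the resistant line. Over the same 7 pairs 28.8% of all gene tests were called, 14.5% higher and 14.3% lower, so the higher calls of the 9 genes were near the share of all genes. Below, a gene is called by this test, with the replicate number as a block, unless another fit is named. GCLC, with 4 higher calls and 0 lower ones, was the only one of the 9 called higher in more than 2 pairs. Its calls in PEO4 and PEO6 share the PEO1 libraries and are not independent. NQO1 was higher in 1 pair and lower in 5, and GCLM and HMOX1 were each lower in 3 and higher in 0. SLC7A11 was higher in 1 pair and lower in 3, TXNRD1 was higher in 1 and lower in 2, and SRXN1 was higher in 2 and lower in 2. The change of each gene also differed between the 7 pairs, by a DESeq2 likelihood ratio test over the 33 libraries, for 9 of 9 genes, against 66.6% of all genes tested. For NFE2L2 (adjusted p = 0.0293) this was lost without replicate 2 (0.278) or replicate 3 (0.203).

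The libraries held 18058985 to 43394009 expected counts (median 30611448), and the lowest count of any of the 9 genes in any library was 24, for HMOX1. The share of counts on mitochondrial rRNA ran from 1.12% to 14.8% and its SD within a line was largest in OVCAR4, OVCAR4 ResA and OVCAR4 ResB (4.14 to 6.15 percentage points). TPM, a measure per transcript length that adds up to the same total in every library, moved with other genes, and the median gene's TPM was higher by 0.44 on the log2 scale in OVCAR4 ResA and by 0.48 in OVCAR4 ResB than in OVCAR4. The fold changes below come from DESeq2-normalised counts, which do not carry that shift. Of 8 epithelial markers, PAX8, EPCAM, KRT7, KRT8, KRT18 and CDH1 had line means above 1 TPM in all 11 lines. WT1 was under 1 TPM in 2 lines (lowest in OVCAR4 ResB, at 0.645 TPM) and MUC16 in 1. PEA1 had the lowest summed TPM of 8 epithelial markers (429, against 2604 to 6511 in the other lines), with MUC16 at 0.0696 TPM and with COL1A1 at 88.4 and PDGFRB at 6.55. PEA2 held PTPRC at 3.30 TPM and CDH5 at 7.02, each under 1 in the other 10 lines, while CD3E was near 0 in all 11 lines. The 4 fibroblast markers summed to 95 TPM in PEA1, mostly COL1A1, and to 0.948 in PEA2. Of these 4, COL1A2 and DCN were under 1 TPM in all 11 lines. The 4 leukocyte markers, mostly CD68, summed to 18.8 TPM in PEA1 and 53.3 in PEA2. These markers thus moved together with every difference between PEA2 and PEA1 below. The epithelial markers summed to 6511 TPM (5524 to 7393) in OVCAR3 and 2835 (2488 to 3125) in OVCAR3 ResA, without overlap, and moved together with the differences between those lines. The 3 endothelial markers summed to 0.350 TPM in OVCAR3 and 7.20 in OVCAR3 ResB, mostly PECAM1. The libraries are bulk RNA of cultured lines, for which the paper describes authentication. In them a change in the share of a culture's cells with a transcript cannot be told apart from a change in RNA per cell. The part of these markers in the values below was not tested. A fit with the mitochondrial share as a covariate, in place of the replicate block, was run for all 10 comparisons. Of the 36 calls of the 9 genes, 33 were kept in it, 3 were lost and 0 changed sign. Its values are given below for some genes only. The part of the share in values other than these comparisons was not tested.

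**Figure D1:**
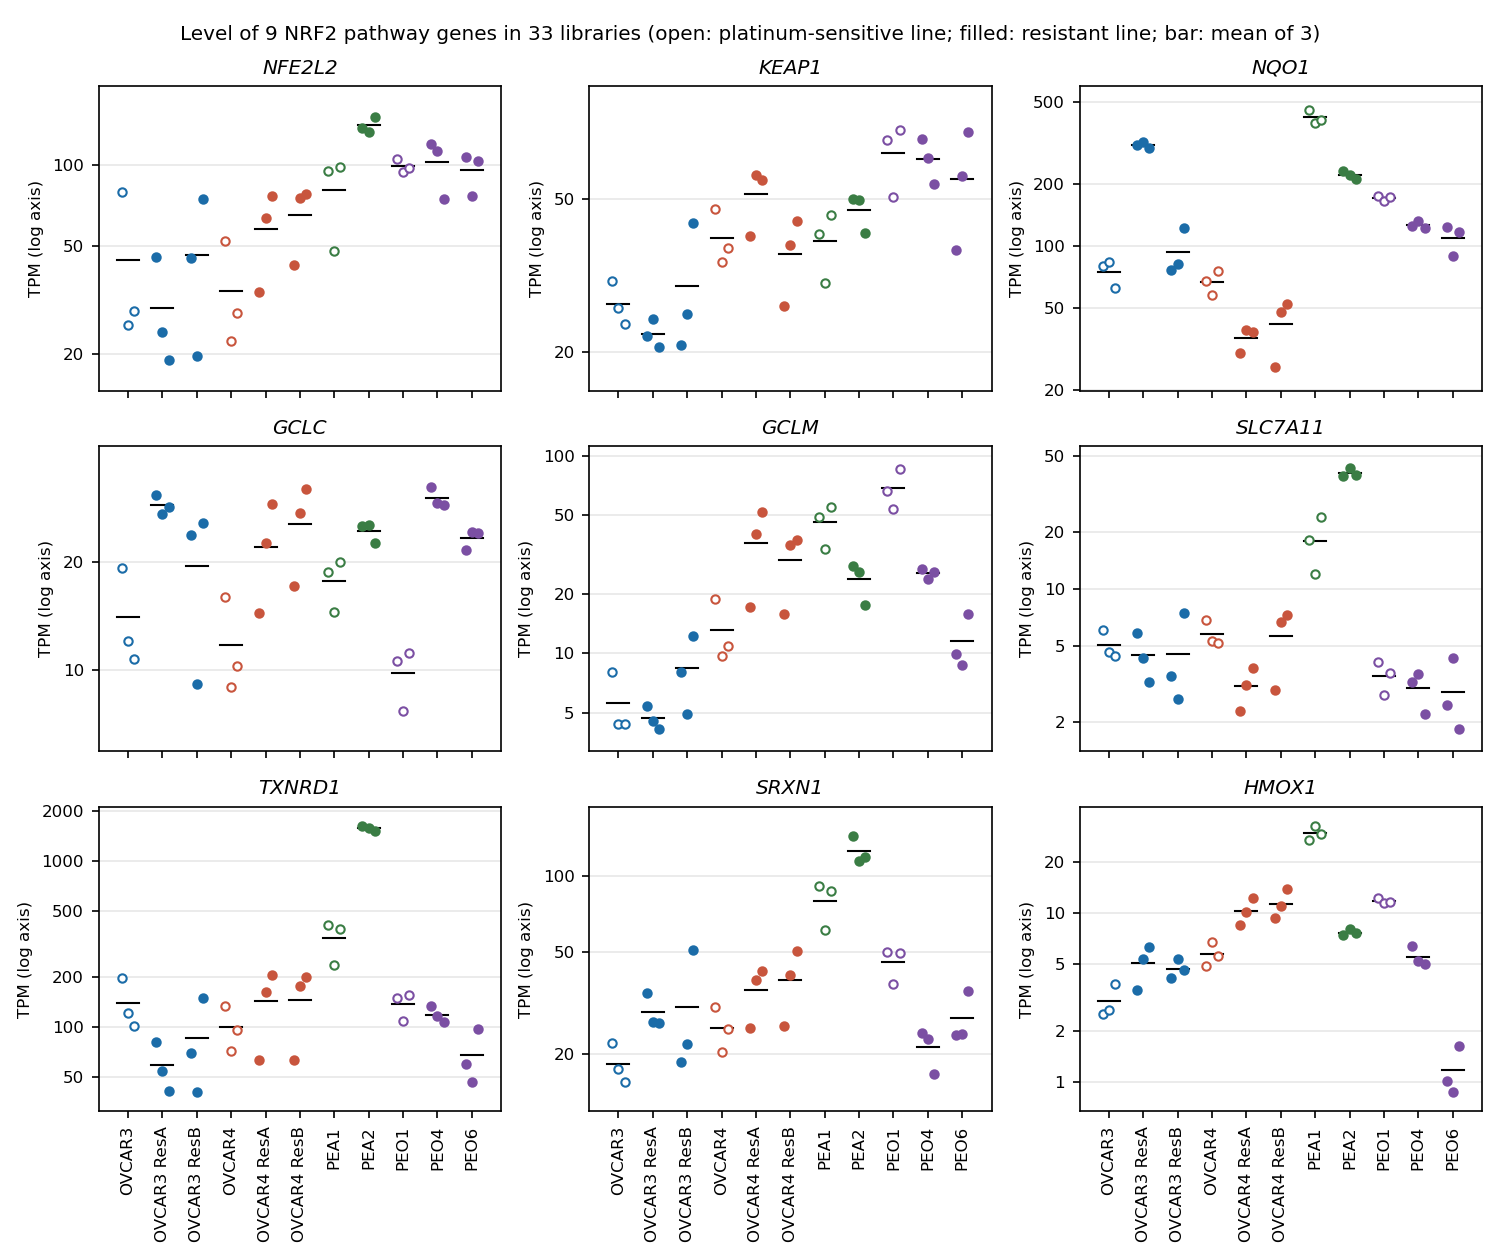
TPM on a log axis (y) of each of the 9 genes in the 11 lines (x). Each point is 1 library, bars are means of 3 libraries, open points are sensitive lines, filled points are resistant lines and colours mark the 4 families. PEA2 stands alone at the top for TXNRD1, with libraries from 1515 to 1630 TPM, and PEO6 at the bottom for HMOX1, with libraries from 0.872 to 1.63 TPM.

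In OVCAR3 ResA, 7 of the 9 genes were called by DESeq2, against 44.9% of all genes tested by DESeq2. Of the 7, 3 were higher (all genes 22%) and 4 lower (22.9%). edgeR called 9 of the 9 in that pair, and 9481 genes over all, where DESeq2 called 8146. None of the 9 was called in OVCAR3 ResB by DESeq2, against 7.14% of all genes (3.84% higher, 3.29% lower). There, 1 of the 9 had an unadjusted p under 0.05, and edgeR likewise called 0 with 1 at an unadjusted p under 0.05. NQO1 and SLC7A11 were called in OVCAR4 ResA, 2 of 9 and both lower, against 11.1% of all genes (6.21% higher, 4.85% lower). The same pair of genes was called lower in OVCAR4 ResB, against 17.3% of all genes (8.8% higher, 8.5% lower). The 2 OVCAR4 comparisons share the OVCAR4 libraries. PEA2 had the most calls, 8 of 9, with 5 higher and 3 lower, against 44.5% of all genes (22% higher, 22.5% lower). In PEO4, 5 of 9 were called, 1 higher and 4 lower, against 33.3% of all genes (16.6% higher, 16.7% lower). In PEO6, 6 of 9 were called, 1 higher and 5 lower, against 39.2% of all genes (19.9% higher, 19.2% lower). The median log2 fold change of the 9 genes was 0.60 in PEA2 (all genes -0.03), -0.67 in PEO6 (all genes 0.04) and -0.36 in OVCAR3 ResA (all genes -0.02). It lay between -0.21 and 0.19 in the other 4 pairs. The share of the 9 called was above that of all genes in the 6 pairs other than OVCAR3 ResB, though near it in OVCAR4 ResB (2 of 9 against 17.3%). The mean normalised counts of the 9 ran from 207 (HMOX1) to 16685 (TXNRD1). The shares of all genes were not matched for expression level, and the 9 were chosen with earlier results of these data known.

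**Figure D2:**
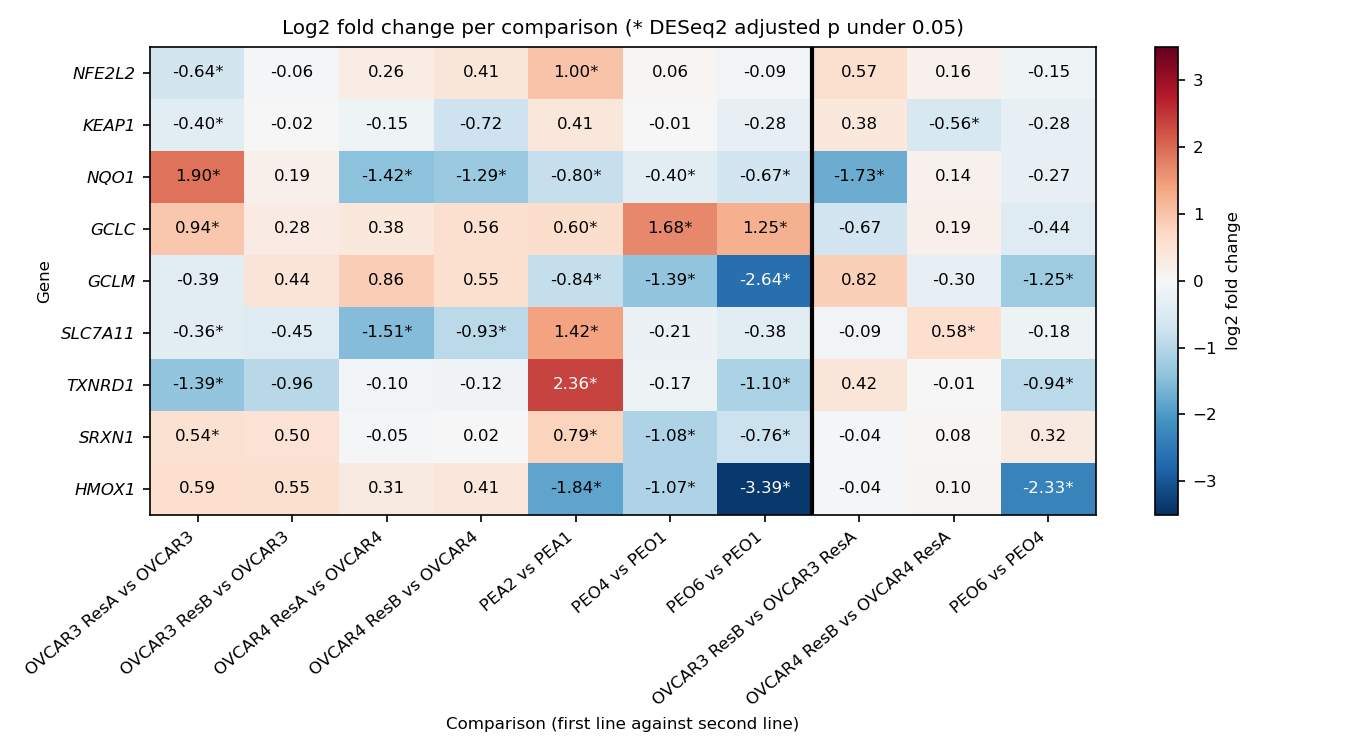
Log2 fold change (colour and printed value) of each gene (y) in each comparison (x), first line against second, with the 7 resistant-sensitive pairs left of the vertical line and the 3 comparisons between resistant lines of a family right of it. An asterisk marks a DESeq2 adjusted p under 0.05. The GCLC row is above 0 in all 7 pairs and called in 4, while the GCLM row is -0.84, -1.39 and -2.64 in PEA2, PEO4 and PEO6.

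Of 14 combinations of a regulator with a pair, 3 were called, no more than the 28.8% of all gene tests. NFE2L2, the NRF2 gene itself, was highest in PEA2, with 137, 133 and 150 TPM, against 95.2, 48.0 and 98.6 TPM in PEA1. The libraries did not overlap, and NFE2L2 rose 2.0-fold (log2 1.0 ± 0.24 SE, adjusted p = 0.000112). With the mitochondrial rRNA share as a covariate the rise was smaller (log2 0.48 ± 0.21, adjusted p = 0.0408). Limma on log2(TPM + 1) without a filter did not call NFE2L2 in PEA2 (adjusted p = 0.0596). In OVCAR3 ResA it fell 1.56-fold (log2 -0.64 ± 0.14, adjusted p = 1.3e-05). Its libraries there overlapped, with 45.5, 24.1 and 19.0 TPM against 79.2, 25.6 and 28.8 in OVCAR3, and the call was lost without the replicate block. NFE2L2 was not called in the other 5 pairs, and PEO1, PEO4 and PEO6 lay close together at 98.9 ± 5.90, 102 ± 24.0 and 95.5 ± 16.4 TPM (SD, n = 3). KEAP1, the NRF2 inhibitor, was called in 1 pair, 1.32-fold lower in OVCAR3 ResA (log2 -0.40 ± 0.13, adjusted p = 0.00552). That call was lost when replicate 1 (adjusted p = 0.247) or replicate 3 (0.0685) was left out. In OVCAR4 ResB, KEAP1 was at log2 -0.72 ± 0.30 (adjusted p = 0.0791), and it was called lower there without the replicate block (adjusted p = 0.000675), with all 33 libraries in one fit (2.58e-05) and with the mitochondrial rRNA share as a covariate (1.1e-06). In PEA2 it was at log2 0.41 ± 0.23 (adjusted p = 0.133), and it was called higher without the block (0.0237) and with all 33 libraries (0.0193). Same-numbered libraries did not deviate together in either comparison. KEAP1 spanned only 22.3 TPM (OVCAR3 ResA) to 66.0 TPM (PEO1) over the 11 lines, and every neighbouring pair of lines in that order had overlapping libraries.

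Glutathione synthesis begins with the import of cystine by SLC7A11, the transport subunit of the cystine-glutamate exchanger. SLC7A11 had 39.0, 43.1 and 39.4 TPM in PEA2 and 18, 12.0 and 23.7 TPM in PEA1. The 2 lines did not overlap with each other or with any other line, and SLC7A11 rose 2.68-fold in PEA2 (log2 1.42 ± 0.23, adjusted p = 2.51e-09). In all other lines its mean TPM was between 2.88 (PEO6) and 5.77 (OVCAR4). OVCAR4 ResA had 2.27, 3.14 and 3.83 TPM against 6.82, 5.30 and 5.2 in OVCAR4, and the gene fell 2.84-fold (log2 -1.51 ± 0.32, adjusted p = 0.000114). OVCAR4 ResB had 2.93, 6.67 and 7.30 TPM, which overlapped OVCAR4, while on normalised counts it was 1.91-fold lower (log2 -0.93 ± 0.32, adjusted p = 0.0241). Both OVCAR4 calls were lost when replicate 2 or replicate 3 was left out (adjusted p 0.0657 to 0.446), at log2 fold changes of -0.99 to -1.68. A smaller decrease in OVCAR3 ResA, 1.29-fold (log2 -0.36 ± 0.14, adjusted p = 0.025), was lost without any 1 of the 3 replicates.

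GCLC and GCLM encode the catalytic and the modifier subunit of glutamate-cysteine ligase, the rate-limiting enzyme of glutathione synthesis. In the PEO family GCLC had 10.6, 7.67 and 11.1 TPM in PEO1, 32.6, 29.4 and 29.0 TPM in PEO4, and 21.6, 24.4 and 24.1 TPM in PEO6. Both resistant lines lay wholly above PEO1, by 3.21-fold in PEO4 (log2 1.68 ± 0.18, adjusted p = 3.67e-20) and 2.37-fold in PEO6 (log2 1.25 ± 0.23, adjusted p = 7.64e-07). GCLC also rose 1.92-fold in OVCAR3 ResA (log2 0.94 ± 0.14, adjusted p = 7.21e-10), where it had 31.0, 27.4 and 28.6 TPM against 19.4, 12.0 and 10.7. The rise in PEA2 was 1.52-fold (log2 0.60 ± 0.23, adjusted p = 0.0189) and was lost without replicate 1 (adjusted p = 0.228) or replicate 2 (0.117). In the remaining 3 pairs GCLC was not called, at log2 0.28 ± 0.35 in OVCAR3 ResB, 0.38 ± 0.35 in OVCAR4 ResA and 0.56 ± 0.33 in OVCAR4 ResB (adjusted p = 0.824, 0.568 and 0.262). With all 33 libraries in one fit it was called higher in OVCAR4 ResB (log2 0.58 ± 0.20, adjusted p = 0.0136). Families accounted for 1.14% of the variance of the line means of GCLC on the log2 scale, the least of the 9 genes, against 91.0% for SLC7A11.

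GCLM went the other way in the patient-derived families. It had 66.0, 54.0 and 85.8 TPM in PEO1, 26.7, 23.8 and 25.8 TPM in PEO4, and 9.88, 8.75 and 15.8 TPM in PEO6, with no overlap between any of the 3 lines. The decrease was 2.61-fold in PEO4 (log2 -1.39 ± 0.17, adjusted p = 3.35e-15) and 6.21-fold in PEO6 (log2 -2.64 ± 0.22, adjusted p = 6.36e-31). PEO6 was also below PEO4 by 2.38-fold (log2 -1.25 ± 0.30, adjusted p = 0.000444), a call lost without replicate 2 (adjusted p = 0.192). In PEA2, GCLM fell 1.79-fold (log2 -0.84 ± 0.25, adjusted p = 0.00221), and that call was lost without replicate 1 (adjusted p = 0.0839). GCLM was not called by DESeq2 in OVCAR3 ResA, with 5.39, 4.51 and 4.15 TPM against 8.06, 4.36 and 4.38 in OVCAR3 (log2 -0.39 ± 0.20, adjusted p = 0.106). It was called lower there by edgeR (adjusted p = 0.026) and with the mitochondrial rRNA share as a covariate (0.0307). In OVCAR4 the 3 libraries had 18.9, 9.70 and 10.8 TPM, against 17.2, 39.9 and 51.6 TPM in OVCAR4 ResA, so that replicate 1 overlapped and the others lay higher. GCLM was not called there with the replicate block (log2 0.86 ± 0.41, adjusted p = 0.176), and it was called higher without the block (log2 0.91 ± 0.34, adjusted p = 0.0391) and with all 33 libraries in one fit (log2 0.92 ± 0.25, adjusted p = 0.00201). Without replicate 1 it was called higher (log2 1.36 ± 0.22, adjusted p = 4.91e-09), and so were NFE2L2 and GCLC (log2 0.72 and 0.68). Replicates 2 and 3 had 14.8% and 12.0% mitochondrial rRNA in OVCAR4, and 2.02% and 2.09% in OVCAR4 ResA. With the mitochondrial rRNA share as a covariate none of these 3 genes was called there (log2 0.18 for GCLM, -0.34 for NFE2L2 and -0.0014 for GCLC). In OVCAR4 ResB the same 3 genes were called higher without replicate 1 (log2 0.77 for NFE2L2, 0.80 for GCLC and 0.95 for GCLM), and KEAP1 lower (log2 -0.65). With the mitochondrial share as a covariate none of the 3 was called in OVCAR4 ResB (log2 0.10, 0.36 and 0.19 in that order). KEAP1 was called lower in that fit too (log2 -0.78).

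The ratio of GCLC to GCLM, taken within each library from TPM, removes the scaling of the library. This ratio was chosen after the values had been seen. It was 0.160, 0.142 and 0.130 in the PEO1 libraries, 1.22, 1.24 and 1.13 in PEO4, and 2.19, 2.78 and 1.53 in PEO6. On geometric means the ratio was 8.32-fold higher in PEO4 and 14.7-fold higher in PEO6 than in PEO1. OVCAR3 ResA had ratios of 5.75, 6.08 and 6.88, the highest of the 11 lines, against 2.40, 2.76 and 2.44 in OVCAR3. PEA2 had 0.913, 0.986 and 1.29 against 0.384, 0.429 and 0.366 in PEA1. In these 4 pairs the resistant libraries lay wholly above the sensitive ones, by 2.46-fold in OVCAR3 ResA and 2.68-fold in PEA2. OVCAR4 ResA lay wholly below OVCAR4, 1.40-fold on geometric means, and OVCAR3 ResB and OVCAR4 ResB overlapped their sensitive lines. With 3 libraries against 3, the 2-sided exact permutation test cannot go below p = 0.1, the value reached in the 5 pairs without overlap.

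**Figure D3:**
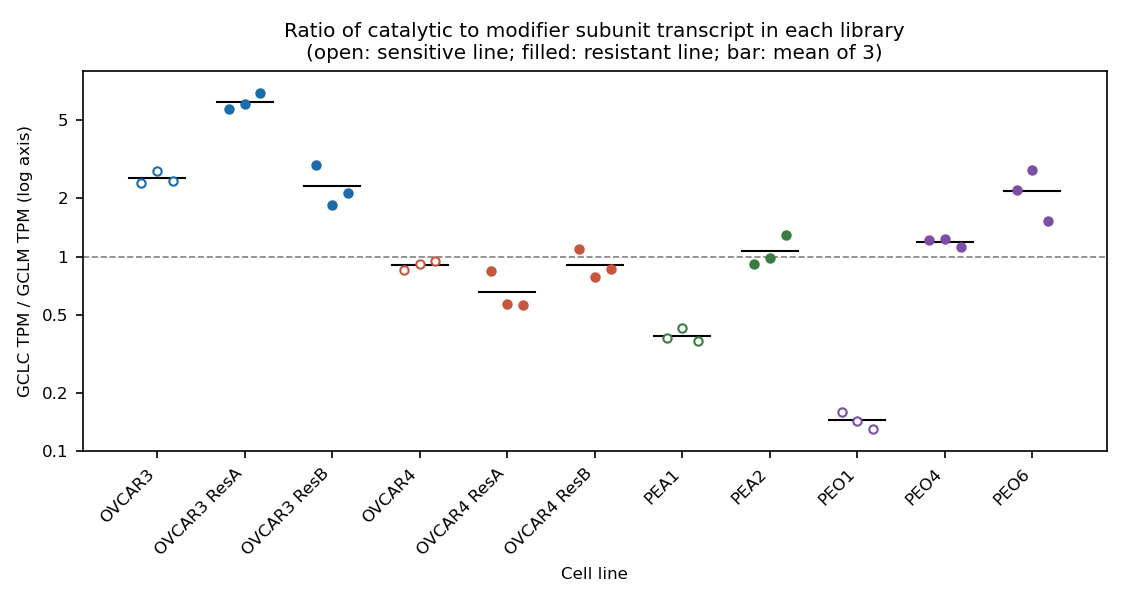
Ratio of GCLC TPM to GCLM TPM on a log axis (y) in each of 3 libraries per line (x), with open points for sensitive lines, filled points for resistant lines, bars for means and a dashed line at equal TPM. PEO1 lies lowest, between 0.130 and 0.160, and OVCAR3 ResA highest, between 5.75 and 6.88.

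The sequence near transcript starts was also read for the core of the antioxidant response element. Elements further from a start are not covered, and a relation of the motif to the changes in level was not tested. Windows from 250 bases before to 50 bases after a transcript start were present for 7 of the 9 genes (RefSeq, GRCh38.p14), with 10 windows in all. SLC7A11 (chr4:138164097-138242349) and HMOX1 (chr22:35381096-35394207) were without an entry. The motif TGACNNNGC, searched on both strands, was found in 4 of the 10 windows, those of GCLM, TXNRD1 (both starts) and the second start of KEAP1, and in 13.3% of 35116 windows of the same length over all genes. Capitals mark the motif, which stands as its reverse complement where it lies on the other strand. The stretches are written in the direction of transcription.
GCLM (chr1:93909431-93909489, minus strand): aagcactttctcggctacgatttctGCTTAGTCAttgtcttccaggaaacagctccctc
TXNRD1, first start (chr12:104215655-104215713, plus strand): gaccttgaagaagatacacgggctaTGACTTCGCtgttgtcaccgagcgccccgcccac
TXNRD1, second start (chr12:104286905-104286963, plus strand): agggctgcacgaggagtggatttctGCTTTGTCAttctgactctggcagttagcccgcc
KEAP1, second start (chr19:10502772-10502850, minus strand): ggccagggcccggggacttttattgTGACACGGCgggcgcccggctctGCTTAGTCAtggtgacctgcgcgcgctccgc
The GCLM motif begins 34 bases before the start, in a gene spanning chr1:93885199-93909430. The first TXNRD1 start is the first base of that gene (chr12:104215779-104350307) and the second lies inside it, as the second KEAP1 start lies inside chr19:10486125-10503356. The first TXNRD1 window holds a further motif across the start, outside the stretch printed. The windows of GCLC (gene chr6:53497341-53545101), NQO1 (chr16:69709401-69726560), SRXN1 (chr20:646615-653200) and NFE2L2 (chr2:177230303-177264727) held no match, which says only that these letters are not in those windows. RefSeq places antisense genes over NQO1, GCLC, SLC7A11 and TXNRD1, and the strand used in counting is not given in the sources used here, so reads of an antisense partner could enter those counts.

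TXNRD1, cytosolic thioredoxin reductase, and SRXN1, sulfiredoxin, keep thioredoxin and peroxiredoxins in the reduced state. TXNRD1 was the most abundant of the 9 transcripts in PEA2, with 1630, 1571 and 1515 TPM, against 408, 237 and 389 TPM in PEA1. No other line reached a mean above 146 TPM, and the rise in PEA2 was 5.12-fold (log2 2.36 ± 0.22, adjusted p = 6.85e-25). TXNRD1 fell 2.62-fold in OVCAR3 ResA (log2 -1.39 ± 0.10, adjusted p = 8.32e-45), from 196, 122 and 101 TPM to 80.9, 54.2 and 40.9 TPM. In OVCAR3 ResB, with 69.3, 40.3 and 149 TPM, it was not called (log2 -0.96 ± 0.38, adjusted p = 0.11), and without replicate 3 it was called lower (log2 -1.45 ± 0.23, adjusted p = 3.47e-08). TXNRD1 was also called lower there with all 33 libraries in one fit (log2 -0.96 ± 0.32, adjusted p = 0.0199). The fit with the mitochondrial share as a covariate called it lower too (log2 -1.03 ± 0.16, adjusted p = 8.43e-09). The remaining 9 of 12 alternatives did not call it. In PEO6, with 59.9, 46.4 and 96.7 TPM against 149, 109 and 156 in PEO1, it fell 2.15-fold (log2 -1.10 ± 0.22, adjusted p = 7.14e-06), a call lost with the mitochondrial rRNA share as a covariate in place of the replicate block (adjusted p = 0.118). Libraries of 1 line could stand far apart for this gene, as in OVCAR4 ResA (63.2, 161 and 206 TPM) and OVCAR4 ResB (62.9, 175 and 199 TPM). Neither line was called for TXNRD1 against OVCAR4 (134, 71.8 and 95.2 TPM). Without replicate 1 both were called higher (log2 0.42 and 0.36, adjusted p = 0.044 and 0.0336), and with the mitochondrial share as a covariate both were called lower (log2 -0.84 and -0.62, adjusted p = 0.000697 and 0.000761), so the data give no direction for TXNRD1 in these lines.

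TXNRD1 was also the member that followed the mitochondrial rRNA share most closely within lines. Over the 33 libraries, with the mean of each line removed from both measures, Pearson r between the log2 level and the log2 share was -0.90 for TXNRD1, -0.78 for NFE2L2, -0.70 for SRXN1 and -0.70 for GCLM. It was 0.03 for NQO1 and 0.59 for HMOX1, and the middle 90% of 15808 genes ran from -0.87 to 0.86. The 3 libraries of a line are not independent points here.

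SRXN1 had 143, 114 and 118 TPM in PEA2 and 91.0, 61.1 and 86.7 TPM in PEA1, which is 1.73-fold higher without overlap (log2 0.79 ± 0.21, adjusted p = 0.000781). That call was lost without replicate 1 (adjusted p = 0.0818). In OVCAR3 ResA it rose 1.45-fold (log2 0.54 ± 0.13, adjusted p = 0.00012). In PEO4 it fell 2.11-fold (log2 -1.08 ± 0.18, adjusted p = 2.97e-08), from 50.3, 37.6 and 49.8 TPM in PEO1 to 24.3, 22.8 and 16.7 TPM. PEO6, with 23.7, 24.0 and 35.5 TPM, was 1.70-fold lower than PEO1 (log2 -0.76 ± 0.22, adjusted p = 0.00241), a call lost without replicate 2 (adjusted p = 0.0864) and with the mitochondrial share as a covariate (0.188). For SRXN1, PEO4 and PEO6 were not called against each other.

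NQO1 reduces quinones and is widely used as a reporter of NRF2 activity. OVCAR3 ResA had 310, 320 and 298 TPM, against 79.8, 83.3 and 62.4 TPM in OVCAR3 and 76.1, 81.9 and 122 TPM in OVCAR3 ResB. NQO1 rose 3.75-fold in OVCAR3 ResA (log2 1.90 ± 0.11, adjusted p = 2.87e-65) and was 3.31-fold lower in OVCAR3 ResB than in OVCAR3 ResA (log2 -1.73 ± 0.32, adjusted p = 2.44e-06). It was the only one of the 9 genes called between these 2 resistant lines, against 12.6% of all genes (6.98% higher, 5.59% lower in OVCAR3 ResB). In the OVCAR4 family the direction was the opposite. OVCAR4 had 67.7, 57.9 and 75.6 TPM, OVCAR4 ResA 30.5, 39.1 and 38.2 TPM, and OVCAR4 ResB 25.9, 47.7 and 52.6 TPM. The decrease was 2.68-fold in OVCAR4 ResA (log2 -1.42 ± 0.30, adjusted p = 0.000102) and 2.45-fold in OVCAR4 ResB (log2 -1.29 ± 0.29, adjusted p = 0.000215). The libraries did not overlap, and both calls were lost without replicate 2 (adjusted p = 0.0687 and 0.0771) or replicate 3 (0.252 and 0.199), with log2 fold changes of -1.28 to -1.47.

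The highest NQO1 level of the 11 lines was in PEA1, at 420 ± 34.1 TPM (SD, n = 3), and PEA2 was 1.74-fold lower at 221 ± 9.83 TPM (log2 -0.80 ± 0.22, adjusted p = 0.000901). That call was lost without replicate 1 (adjusted p = 0.109). PEO1 had 170 ± 5.18 TPM, and PEO4 and PEO6 were lower by 1.32-fold and 1.59-fold (log2 -0.40 ± 0.16 and -0.67 ± 0.23, adjusted p = 0.0449 and 0.0132). Both of these were lost without replicate 2 (adjusted p = 0.318 and 0.289), PEO4 also without replicate 1 (0.429), and PEO6 also without replicate 3 (0.0638) and with the mitochondrial share as a covariate (0.108). NQO1 thus had the most calls of the 9 genes, in 6 of 7 pairs.

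HMOX1 encodes heme oxygenase 1, which degrades heme and is also repressed by BACH1. It was the least abundant of the 9 in PEO6, with 1.02, 0.872 and 1.63 TPM, against 12.3, 11.5 and 11.6 TPM in PEO1 and 6.41, 5.18 and 4.98 TPM in PEO4. The 3 lines did not overlap. HMOX1 fell 10.5-fold in PEO6 (log2 -3.39 ± 0.36, adjusted p = 4.66e-19) and 2.10-fold in PEO4 (log2 -1.07 ± 0.26, adjusted p = 0.000195), the latter lost without replicate 2 (adjusted p = 0.0766). Between the resistant lines, PEO6 was 5.02-fold below PEO4 (log2 -2.33 ± 0.47, adjusted p = 1.61e-05). PEA1 was the highest line, with 27.2, 32.7 and 29.4 TPM, and HMOX1 fell 3.58-fold in PEA2 (log2 -1.84 ± 0.27, adjusted p = 6.97e-11), which had 7.36, 8.01 and 7.57 TPM. In the OVCAR3 and OVCAR4 families HMOX1 was not called by DESeq2. In OVCAR3 ResA its log2 difference was 0.59 ± 0.29 (adjusted p = 0.0879), and it was called higher in 5 of 12 alternatives, among them edgeR (adjusted p = 0.00869) and the fit with the mitochondrial share as a covariate (0.00727). The TPM of OVCAR4 ResA (8.47 to 12.2) and of OVCAR4 ResB (9.35 to 13.8) lay above that of OVCAR4 (4.87 to 6.76), while on normalised counts the log2 difference was 0.31 ± 0.41 and 0.41 ± 0.41 (adjusted p = 0.711 and 0.569).

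Resistant lines of the same family were also compared directly. OVCAR4 ResB differed from OVCAR4 ResA in 2 of the 9 genes, against 31.8% of all genes (15.8% higher, 16% lower). SLC7A11 was 1.5-fold higher in OVCAR4 ResB (log2 0.58 ± 0.17, adjusted p = 0.00301) and KEAP1 1.48-fold lower (log2 -0.56 ± 0.12, adjusted p = 1.48e-05). Both were lost without replicate 2 (adjusted p = 0.407 and 0.114), and SLC7A11 also without replicate 3 (0.0592) and without the replicate block. PEO6 differed from PEO4 in 3 genes, all lower, against 18.2% of all genes (9.86% higher, 8.33% lower), namely HMOX1 and GCLM as above and TXNRD1, which was 1.91-fold lower (log2 -0.94 ± 0.30, adjusted p = 0.0149). The TXNRD1 call was lost without replicate 1 (adjusted p = 0.178) or replicate 2 (0.604).

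With the line as the unit (counts added over the 3 libraries of a line, family as a term in the model), no member was called by DESeq2 between the 7 resistant and 4 sensitive lines, against 0.377% of all genes tested (68 of 18028). edgeR called 0 as well. GCLC alone had an unadjusted p under 0.05, 1 of 9 against 7.74% of all genes tested, with a log2 difference of 0.77 ± 0.26 and an adjusted p of 0.258. The median over the 9 genes was -0.11, beside 0.01 for all genes.

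The 9 genes were read against the wider pathway. Of 32 further genes of NRF2 regulation, glutathione, thioredoxin, NADPH, heme and iron, and detoxification, 31 had an adjusted p, and GPX2 had none in any pair. Of the 217 combinations tested over the 7 pairs 74 were called, 39 higher and 35 lower in the resistant line, beside 28.8% of all gene tests (14.5% higher and 14.3% lower). PEA2 had the most calls higher (12 of 31 tested, with 6 lower), beside 22% higher and 22.5% lower among all genes in that pair. OVCAR3 ResA had the most calls lower (11 of 31, with 5 higher), beside 22.9% lower and 22% higher among all genes there. The median log2 fold change of the list was 0.39 in PEA2 (all genes -0.03) and between -0.19 and 0.19 in the other 6 pairs. Among the 6 NADPH genes 8 of 42 combinations were higher and 6 lower, and among the 4 heme and iron genes 10 of 28 were higher and 3 lower. The 2 thioredoxin genes were lower in 7 of 14 combinations and higher in 0, and the 3 glutathione genes tested were higher in 2 and lower in 5 of 21. The 8 detoxification genes were higher in 10 and lower in 8 of 56, and the 8 regulators higher in 9 and lower in 6 of 56. These counts stand beside 14.5% higher and 14.3% lower for all gene tests. Those of the detoxification genes and regulators lay near these shares, as did the lower calls of the NADPH genes and the higher and lower calls of the whole list. BACH1, the repressor that competes with NRF2 for its sites, was called higher in 4 pairs, most in PEA2 (44.2 ± 3.85 against 10.4 ± 4.41 TPM, log2 2.34 ± 0.25, adjusted p = 1.87e-19), and also in OVCAR4 ResB, PEO4 and PEO6. BLVRB, biliverdin reductase B, was higher in 4 pairs, with log2 fold changes of 0.76 (PEO6) to 1.45 (OVCAR4 ResB). PRDX1, a peroxiredoxin, was lower in 5 pairs, from log2 -0.52 in OVCAR3 ResA to -1.15 in OVCAR4 ResA. CBR3, a carbonyl reductase, was lower in 4 pairs, from log2 -0.99 in OVCAR3 ResA to -1.69 in PEA2.

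Among the pathway and ATF4-linked genes with a mean normalised count of 100 or more, the called gene with the largest change in each pair is given here or in the next paragraph. CBR1, carbonyl reductase 1, had 4.18 ± 0.0616 TPM in PEO1, 41.7 ± 3.11 in PEO4 and 71.2 ± 1.41 in PEO6 (log2 3.36 ± 0.23 and 4.08 ± 0.26, adjusted p = 8.92e-46 and 7.9e-55). AKR1C1, an aldo-keto reductase whose reads could be shared with its close paralogs, had 14.3 ± 0.879 TPM in PEA2 against 0.815 ± 0.374 in PEA1 (log2 4.35 ± 0.41, adjusted p = 2.54e-25). EPHX1, microsomal epoxide hydrolase, had 211 ± 51.8 TPM in OVCAR3 ResB against 37.9 ± 2.02 in OVCAR3 (log2 2.34 ± 0.31, adjusted p = 6.91e-12), the line in which none of the 9 was called. TXN, thioredoxin, fell in OVCAR4 ResB from 1381 ± 102 to 536 ± 100 TPM (log2 -1.97 ± 0.37, adjusted p = 4.55e-06).

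SLC7A11, CHAC1, TRIB3 and ASNS also belong to the ATF4 amino acid stress response, so 7 ATF4-linked genes were set beside the members. They were lower in 20 and higher in 7 of 49 combinations, where 14.3% of all gene tests were lower and 14.5% higher. PEA2, where SLC7A11 rose, held 6 of the 7 higher calls, against 22% of all genes called higher in that pair. Their median log2 fold change was 1.75 in PEA2 (all genes -0.03) and between -1.40 and -0.36 in the other 6 pairs. ASNS, asparagine synthetase, fell from 225 ± 22.8 to 90.7 ± 15.7 TPM in OVCAR3 ResA (log2 -1.40 ± 0.14, adjusted p = 2.33e-21) and from 669 ± 131 to 163 ± 13.6 TPM in OVCAR4 ResA (log2 -2.46 ± 0.31, adjusted p = 9.64e-13). In PEA2 it rose from 49.9 ± 8.79 to 287 ± 114 TPM (log2 2.63 ± 0.31, adjusted p = 4.38e-16). ASNS was lower in 5 pairs in all, as was PSAT1 of serine synthesis. TRIB3, a pseudokinase of the ATF4 response, was lower in 4 pairs and higher in PEA2 (log2 2.69 ± 0.27, adjusted p = 3.07e-22).

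**Figure D4:**
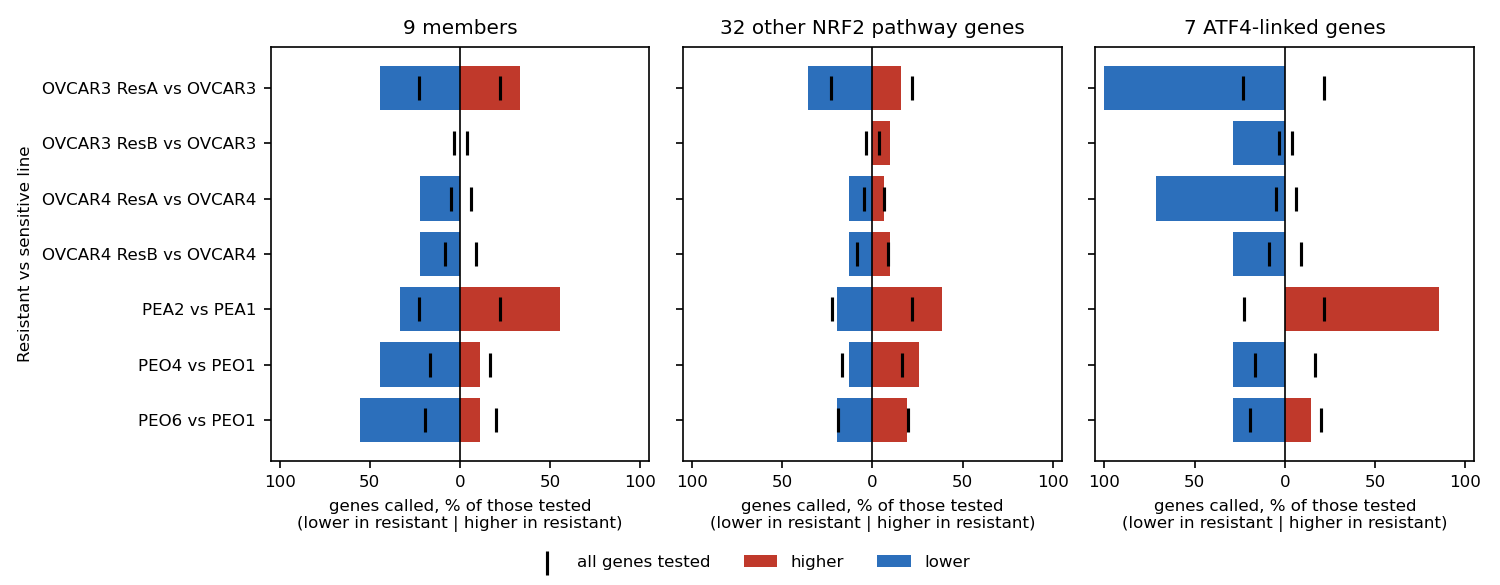
Share of the tested genes of each list that were called higher (right, red) or lower (left, blue) in the resistant line, in percent (x), for each of the 7 pairs (y). Black ticks mark the shares over all genes tested. In PEA2 the ATF4-linked genes were called higher in 6 of 7, and in OVCAR3 ResA lower in 7 of 7.

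Across the 11 line means of log2(TPM + 1) the targets varied together only in part. The 21 pairs of targets had a median Pearson r of 0.43 (range -0.20 to 0.90), which became -0.03 once the family means were removed. The lines of a family share their origin, so these values describe 11 points that are not independent. TXNRD1 and SLC7A11 had the highest r, 0.90, and GCLM and HMOX1 had 0.73, or 0.89 with family means removed. GCLC and GCLM had the lowest, -0.20. NFE2L2 and NQO1 had 0.23, and -0.80 with family means removed. Outside the 9, genes whose line means were most like the median standardised level of the 7 targets included RFWD3, GEMIN4, IL15RA and AFAP1L1. Their r was 0.951 to 0.955 over 11 lines, the top of a search among 10596 genes with a mean of at least 5 TPM. The 7 targets themselves had r with that median from -0.01 (GCLC) to 0.91 (SRXN1). With family means removed their r ran from -0.31 (SLC7A11) to 0.90 (HMOX1), so the median does not stand for each target.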

How the data were processed

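Libraries were made with an mRNA kit, and per the study's methods the nf-core RNA-seq pipeline with salmon quantified the reads against GRCh38. The authors deposited expected counts per gene, not normalised, and TPM, which the authors' pipeline scales to gene length and library total. Expected counts were rounded and tested in R 4.3.3 with DESeq2 1.42.0 (Wald test, replicate and line as terms, 6 libraries per comparison, no filter), which follows the study's methods. Adjusted p-values cover all genes. Alternatives were edgeR 4.0.16, limma 3.58.1 on log2(TPM + 1) or log2(TPM + 0.1), other filters, size factors and designs, each replicate left out and, chosen after the data were seen, the mitochondrial rRNA share as a covariate. Scripts were tested on simulated data.

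The 9 genes and the lists were chosen with earlier results of these data known. Of the lists, genes called in 1 direction in at least 4 pairs are named, as is the called gene with the largest absolute change in each pair among those whose normalised counts average at least 100. Genes most like the targets were taken as the 5 with the highest Pearson r, of which 1 is not reported here. The labels do not say that replicates are separate cultures, so p-values measure only the spread between these samples, which may be technical. Replicates differed by more than counting noise. Same-numbered libraries deviated together (r over 0.1 for all 3 numbers) in OVCAR3 ResA against OVCAR3 (0.636, 0.218 and 0.426) and OVCAR4 ResB against OVCAR4 ResA (0.630, 0.445 and 0.488), and not in the other 8 comparisons.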

Additional observations from a re-analysis of the deposited data

Results flagged for a closer look

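The change from the sensitive to the resistant line differed between the 7 pairs for each of the 9 genes, by the DESeq2 likelihood ratio test of the difference itself, which sets a model with a level for every line against one with a common change for all pairs. The adjusted p was 8.5e-58 for NQO1, 1.6e-27 for HMOX1, 1.96e-21 for GCLM, 1.77e-14 for TXNRD1 and 1.34e-11 for SLC7A11. It was 4.5e-12 for SRXN1, 9.15e-07 for KEAP1, 1.91e-05 for GCLC and 0.0293 for NFE2L2. The value for NFE2L2 was lost with edgeR (0.0879), without the replicate block (0.0563) and without replicate 2 (0.278) or replicate 3 (0.203). Of all genes tested 66.6% passed the same threshold, so a difference between pairs was common. For NQO1 the log2 fold changes ran from -1.42 (OVCAR4 ResA) to 1.90 (OVCAR3 ResA), and for GCLC from 0.28 to 1.68, all of 1 sign.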

How the results depend on the processing

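Of the 36 calls over 10 comparisons, 13 held in all 12 alternatives and 23 were lost in at least 1, and none changed sign. Of the 54 uncalled values, 21 were called in at least 1 alternative. Counts of members called that moved by over 1.5 times were as follows. In OVCAR3 ResB (0 of 9), 2 were called with all 33 libraries in one fit and 2 with the mitochondrial rRNA share. In OVCAR4 ResA (2), edgeR and each of the 3 limma fits called 0. In OVCAR4 ResB (2), edgeR called 1, each limma fit 0, the fit of 33 libraries 4 and the mitochondrial covariate 4. In PEA2 (8), unfiltered limma called 5. In PEO6 (6), the mitochondrial covariate left 3. Between OVCAR3 ResB and ResA (1), the fit without the replicate block called 2, the fit of 33 libraries 4, unfiltered limma 0 and the mitochondrial covariate 4. Between OVCAR4 ResB and ResA (2), without the block, with 33 libraries and with unfiltered limma 1 was called in each. Between PEO6 and PEO4 (3), limma called 1 with either pseudocount and 0 unfiltered.

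With 1 replicate left out, the count ran from 0 to 1 in OVCAR3 ResB, 0 to 6 in OVCAR4 ResA, 0 to 7 in OVCAR4 ResB, 4 to 8 in PEA2, 3 to 5 in PEO4, 0 to 3 between OVCAR4 ResB and ResA, and 1 to 3 between PEO6 and PEO4. The high OVCAR4 values are those without replicate 1. Without the replicate block 33 of the 36 calls remained. Counts over all genes moved too, from 1226 in OVCAR3 ResB to between 2 and 3407, from 1745 in OVCAR4 ResA to between 0 and 6189, and from 2830 in OVCAR4 ResB to between 0 and 7211. The change between pairs differed for 8 or 9 of the 9 genes in each of 6 alternatives, and 0 members were called at the level of lines in each of 9.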
